A study of Homo sapiens with 6 samples.

Results

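Receptors, ligands and target genes of the Notch pathway were followed in IMR90, a line of human lung fibroblasts, with and without oncostatin M. The 10 genes were taken from a list of NOTCH1, NOTCH2 and NOTCH3 (receptors), JAG1, JAG2, DLL1 and DLL4 (ligands) and HES1, HEY1 and HEY2 (target genes). All 10 were measured among 18417 genes, each by 1 probe set that the platform's gene table assigned to that symbol alone. The groups were 3 arrays of untreated IMR90 cells and 3 arrays of IMR90 cells stimulated with recombinant human (rh) oncostatin M, which belongs to the interleukin-6 family of cytokines, at 10 ng/mL. Both groups were the same line, and the sources used here do not give how long the treatment lasted. Whether the replicates came from separate cultures is not stated in the labels, so a p-value reflects the spread among these arrays alone, and that spread may be technical. In bulk RNA, fewer cells of a type and less RNA per cell cannot be told apart.

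Notch signalling passes between touching cells. A ligand of the Jagged or Delta-like family on one cell binds a Notch receptor on its neighbour, proteases of the ADAM family and then gamma-secretase cut the receptor, and the freed intracellular part enters the nucleus. There it joins the DNA-binding protein RBPJ and Mastermind coactivators and switches on genes of the HES and HEY families, which encode repressors. In mesenchyme the pathway is known for its part in the differentiation of vascular mural cells and in the activation of fibroblasts into contractile cells.

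Values are log2 expression levels, and a change is oncostatin M minus control on that scale, with its standard error (SE) from a linear model fitted over all 18417 genes (limma). A gene is called when its p-value, adjusted over all genes by the Benjamini-Hochberg method, is under 0.05. After oncostatin M the ligand DLL4 fell 1.35-fold and the receptor NOTCH2 fell 1.25-fold, and none of the 10 genes was called higher. The other 8 did not pass the threshold, and the canonical targets HES1, HEY1 and HEY2 were among them. The 2 called members of 10 stand beside 3.42% of all genes called in either direction, of which 1.70% were lower and 1.72% higher. At an unadjusted p under 0.05 there were 3 members (NOTCH1 higher, NOTCH2 and DLL4 lower), beside 11.6% of all genes. The median change of the 10 was -0.017, against 0.00057 for all genes.

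The promoters below are those of the called members and of the target genes whose promoters held an RBPJ match. RBPJ recognises the letters GTGGGAA, with the core TGGGAA inside them, and activated STAT factors, which carry the oncostatin M signal, recognise TTCNNNGAA. These letters were searched on both strands, in the window from 250 bases before to 50 bases after the start site (RefSeq, GRCh38.p14). A match to GTGGGAA always overlaps one to its core, and the core was added to the search after the matches had been seen. Of the 10 members, 8 had a promoter in the table (all but DLL1 and HEY1). Capitals mark matches, TTCCCAC being the other strand of GTGGGAA. The DLL4 window lies at chr15:40929090-40929389, plus strand, that of NOTCH2 at chr1:120069613-120069912, minus strand, that of HES1 at chr3:194135898-194136197, plus strand and that of HEY2 at chr6:125749382-125749681, plus strand.
DLL4: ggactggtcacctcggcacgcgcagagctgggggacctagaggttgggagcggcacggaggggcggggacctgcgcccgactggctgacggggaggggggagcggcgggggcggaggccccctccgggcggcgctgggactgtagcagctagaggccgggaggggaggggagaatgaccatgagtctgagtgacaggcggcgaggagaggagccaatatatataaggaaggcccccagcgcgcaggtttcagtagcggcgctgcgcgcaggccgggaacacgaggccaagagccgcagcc
NOTCH2: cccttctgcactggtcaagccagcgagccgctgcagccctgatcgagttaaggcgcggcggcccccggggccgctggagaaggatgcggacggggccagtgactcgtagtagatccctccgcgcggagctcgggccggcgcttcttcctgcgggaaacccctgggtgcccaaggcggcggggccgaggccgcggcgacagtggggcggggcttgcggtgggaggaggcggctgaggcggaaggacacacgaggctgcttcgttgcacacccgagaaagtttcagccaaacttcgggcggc
HES1: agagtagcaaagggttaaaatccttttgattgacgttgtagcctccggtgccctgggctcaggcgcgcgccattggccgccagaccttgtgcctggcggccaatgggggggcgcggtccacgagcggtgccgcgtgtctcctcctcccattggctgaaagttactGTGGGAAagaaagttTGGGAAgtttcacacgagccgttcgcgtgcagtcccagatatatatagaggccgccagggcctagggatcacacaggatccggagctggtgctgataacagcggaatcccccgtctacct
HEY2: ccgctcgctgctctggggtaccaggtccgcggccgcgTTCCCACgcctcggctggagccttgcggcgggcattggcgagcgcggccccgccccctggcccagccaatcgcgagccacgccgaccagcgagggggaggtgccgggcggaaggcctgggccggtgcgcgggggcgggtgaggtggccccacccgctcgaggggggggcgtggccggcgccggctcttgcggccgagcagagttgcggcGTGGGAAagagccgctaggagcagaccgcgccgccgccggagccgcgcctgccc

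HES1 held GTGGGAA from position -85 and a second core, TGGGAA, from -70, both on the gene's strand. HEY2 held GTGGGAA from -4 and, on the other strand, from -213. Among 8 HES and HEY genes with a promoter in the table, 5 held GTGGGAA (HES1, HEY2, HES4, HES5 and HEYL), which is 62.5%, against 6.25% of 35116 promoters. None of the 6 windows of receptors and ligands held it, nor its core, which 24% of all promoters hold. The STAT letters stood in 1 of the 8 members' windows, that of NOTCH3, against 7.66% of all promoters. A match is a run of letters in this window and was not tested for binding. Shares of gene sets count a gene once if any of its windows matched, while shares over all promoters count windows. The HES and HEY genes are known RBPJ targets, as described above, so their high share of GTGGGAA is not an independent result.

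Among the receptors, NOTCH2 was the called member. Its levels were 11.00, 11.03 and 11.06 in controls 1 to 3 and 10.67, 10.70 and 10.76 on oncostatin M arrays 1 to 3. All 3 treated arrays lay below all 3 controls, with a gap wider than the spread within either group. The change was -0.32 (SE 0.067, limma adjusted p = 0.0435, 95% interval -0.47 to -0.16, unadjusted), from 11.03 ± 0.030 to 10.71 ± 0.045 (SD, n = 3). NOTCH2 ranked at place 590 of 18417 by p-value, near the edge of the calls. Its call was lost when any 1 of the 6 arrays was left out, with adjusted p between 0.0567 (without oncostatin M 1) and 0.189 (without control 3), while the change stayed between -0.34 and -0.30.

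The human genome holds partial copies of NOTCH2 (the NOTCH2NL genes) that share most of their sequence with it, so the value of NOTCH2 is uncertain to the extent that probes read the copies. A further probe set, 7904702, is listed for NOTCH2 together with NOTCH2NLA and NOTCH2NLB and is not a value of any of them alone. It read 10.36, 10.34 and 10.40 in controls and 10.05, 10.19 and 10.30 after oncostatin M. The treated arrays again lay below the controls, by 0.18 between means, which was not tested.

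NOTCH1, the receptor best known from T cell development, lay higher after oncostatin M and did not pass the threshold. Its levels were 8.02, 8.30 and 8.19 in controls and 8.47, 8.49 and 8.39 after oncostatin M. The groups did not overlap, and the change was 0.28 (SE 0.088, limma adjusted p = 0.191, interval 0.078 to 0.48). With array weights, which give oncostatin M 1 the least weight, it was called higher (0.30, limma adjusted p = 0.048). That fit also called 667 genes higher and 610 lower over the array, against 316 and 314 in the main fit. Without oncostatin M 1 NOTCH1 was not called (0.27, limma adjusted p = 0.217), nor was it without any other 1 array. NOTCH3, the receptor of vascular mural cells, read 9.56, 9.75 and 9.60 in controls and 9.67, 9.58 and 9.54 after oncostatin M. Its groups overlapped, and the interval of its change ran from -0.22 to 0.14.

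**Figure D1:**
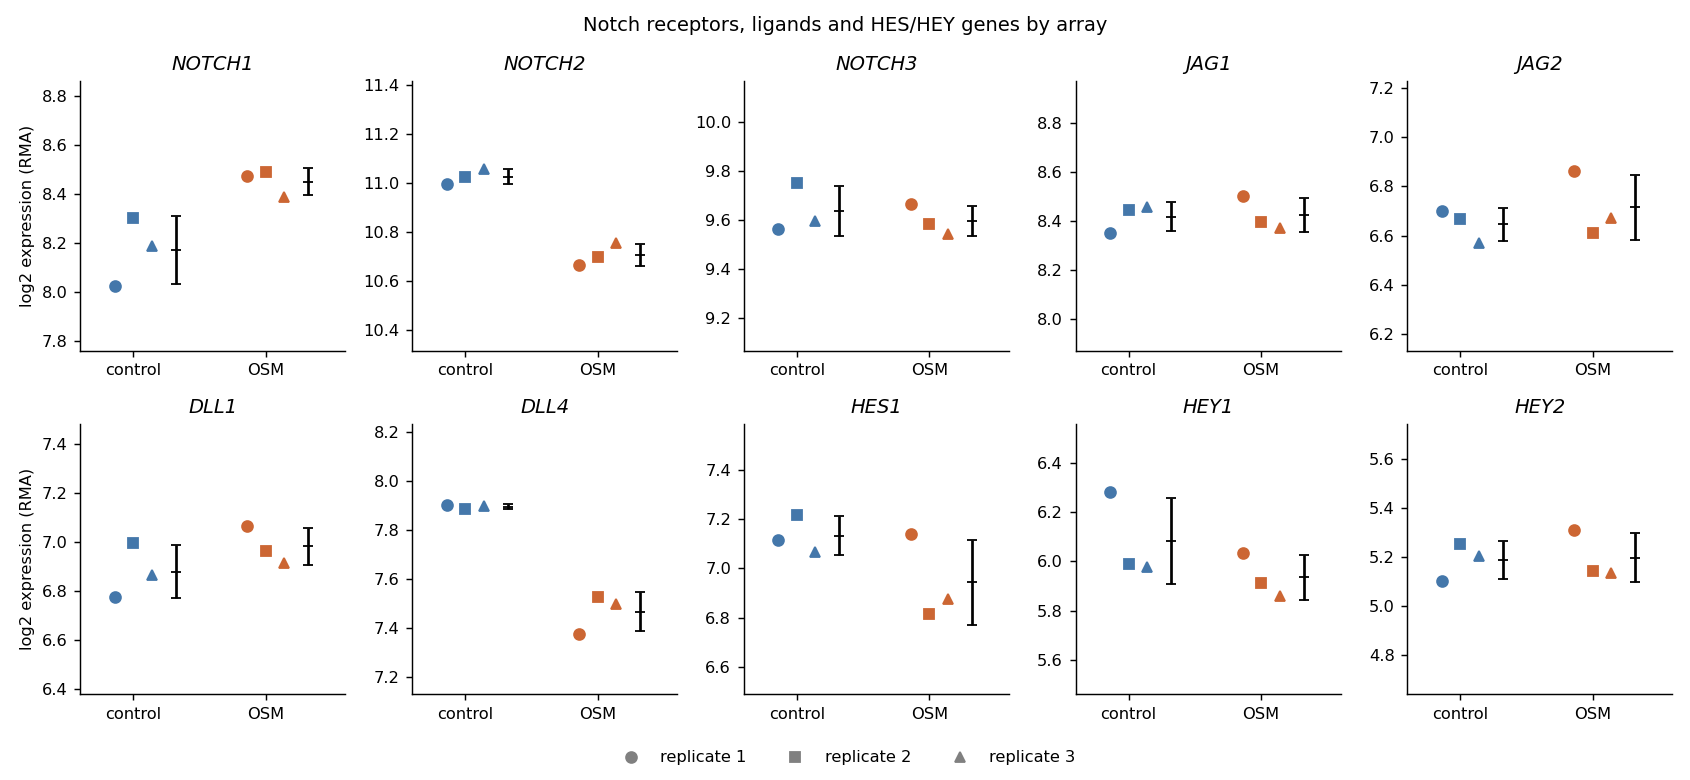
Log2 expression (y axis, RMA values) of the 10 Notch genes in control and oncostatin M (OSM) arrays, 1 panel per gene, each spanning the same number of log2 units. Symbols are single arrays (shape gives the replicate number) and the black bars are mean ± SD over 3 arrays. DLL4 and NOTCH2 lie lower on each treated array than on any control, NOTCH1 lies higher, and the groups of the other 7 genes overlap.

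DLL4, a Delta-like ligand best known from sprouting blood vessels, showed the largest change of the 10. Its levels were 7.90, 7.89 and 7.90 in controls and 7.38, 7.52 and 7.50 after oncostatin M. The controls were nearly alike, the treated arrays all lay below them, and oncostatin M 1 was the lowest. The change was -0.43 (SE 0.071, limma adjusted p = 0.0149, interval -0.59 to -0.27), from 7.89 ± 0.0087 to 7.47 ± 0.079 (SD, n = 3), so the treated level was 74.3% of control. DLL4 ranked at place 361 by p-value. The spread of its controls was smaller than that of nearly all genes, since 0.624% had a smaller control SD. Limma moderates such a spread toward the other genes, and the SE above includes that.

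The call of DLL4 held without any 1 of the oncostatin M arrays (limma adjusted p = 0.0159, 0.0415 and 0.049 without arrays 1, 2 and 3). It was lost without control 1 (0.0899), control 2 (0.0703) or control 3 (0.0715). Its change stayed between -0.46 and -0.38 over these 6 fits.

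**Figure D2:**
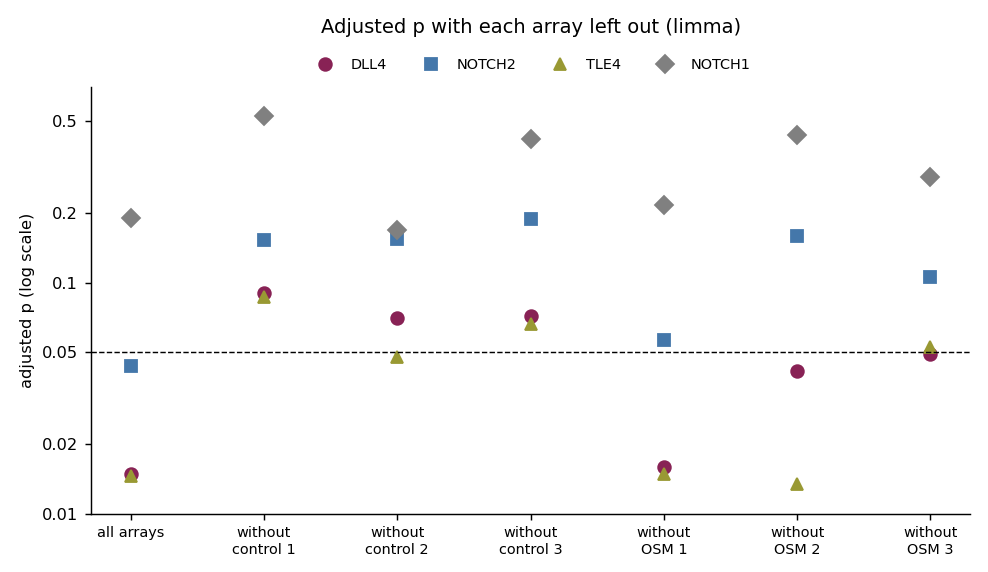
Adjusted p (y axis, log scale, limma) for DLL4, NOTCH2, NOTCH1 and the corepressor gene TLE4 with all 6 arrays and with each array left out (x axis; OSM, oncostatin M). The dashed line is the threshold of 0.05: NOTCH2 lies under it with all arrays alone, DLL4 also without any 1 treated array, and NOTCH1 never.

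The other 3 ligands overlapped between groups. JAG1, the Jagged ligand widely expressed in mesenchyme, read 8.35, 8.44 and 8.46 in controls and 8.50, 8.40 and 8.37 after oncostatin M. The ranges of the groups overlapped over most of their length, and the interval of the change was -0.16 to 0.18. JAG2 read 6.70, 6.67 and 6.57 in controls and 6.86, 6.61 and 6.67 after oncostatin M. Its high value was that of oncostatin M 1, and its change of 0.07 (interval -0.13 to 0.27) did not pass. DLL1, the other Delta-like ligand, read 6.78, 6.99 and 6.87 in controls and 7.07, 6.96 and 6.92 after oncostatin M. The treated arrays lay in the upper part of the control range or just above it, with an interval of -0.089 to 0.29.

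By a fixed rule, the 3 genes with array profiles nearest to DLL4 were sought, measured as the root mean square difference of deviations from each gene's mean over the 6 arrays. They were PDE1C (0.0141), a cyclic nucleotide phosphodiesterase, RAPH1 (0.0225), a regulator of actin at the cell edge, and SEMA3A (0.0228), a secreted guidance cue. Their changes were -0.44, -0.41 and -0.40, close to that of DLL4 as the measure requires, and PDE1C lay within the range of silent genes described below.

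HES1, a repressor and the standard early target of Notch, read 7.11, 7.22 and 7.07 in controls and 7.14, 6.81 and 6.88 after oncostatin M. Oncostatin M arrays 2 and 3 lay below the controls and array 1 lay among them. The change was -0.19 (SE 0.10, limma adjusted p = 0.577, interval -0.42 to 0.039). With each array left out it lay between -0.29 (without oncostatin M 1, limma adjusted p = 0.0934) and -0.13 (without oncostatin M 2, limma adjusted p = 0.766). HEY1 read 6.29, 5.99 and 5.98 in controls and 6.04, 5.91 and 5.86 after oncostatin M. Control 1 stood above the rest, array 1 of the treated group lay between the controls, and the change was -0.15 (interval -0.38 to 0.086). Without control 1 it was -0.047 (limma adjusted p = 0.984). HEY2 read 5.10, 5.25 and 5.21 in controls and 5.31, 5.14 and 5.14 after oncostatin M, with no separation and an interval of -0.18 to 0.20. These intervals still hold falls in HES1 and HEY1 as large as that called in NOTCH2.

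**Figure D3:**
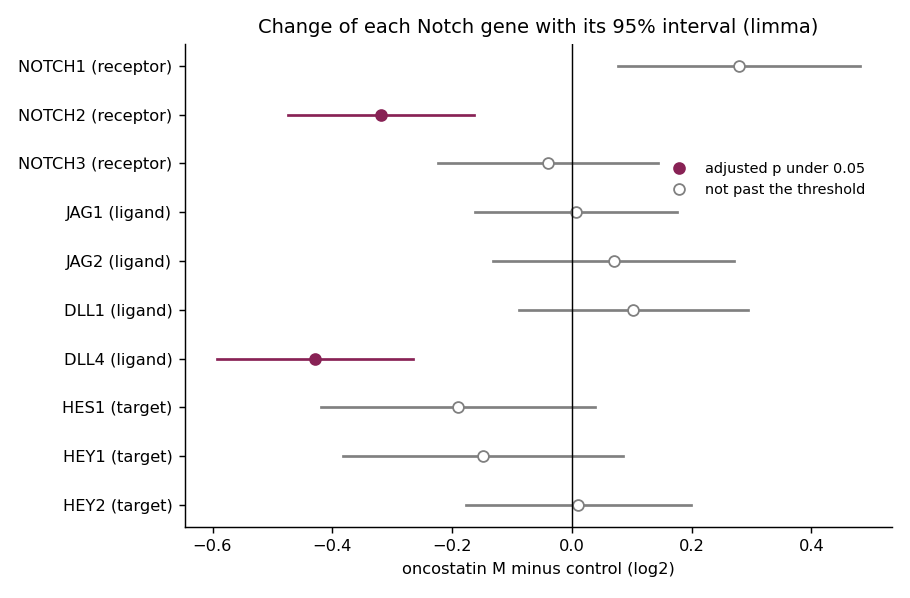
Change of each Notch gene (x axis, oncostatin M minus control, log2) with its 95% interval from limma, not adjusted over genes. Filled points passed an adjusted p of 0.05: DLL4 (-0.43) and NOTCH2 (-0.32). The interval of NOTCH1 lies above 0, and those of the other 7 genes include 0.

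The files hold no detection calls, so dim members were judged against 409 genes of olfactory receptors and of keratin-associated proteins, which fibroblasts should not express. The percentile of 95 of their means was 6.74 in controls and 6.77 after oncostatin M. JAG2, HEY1 and HEY2 lay at or below it in both groups, so their values may be mostly background and a change in them could be missed. The other 7 members lay above it, DLL1 (6.88 in controls) and HES1 (7.13) closest to it. In controls DLL4 (7.89) read higher than 97.8% of the 409 genes, so some of these read brighter still.

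The rest of the pathway was described with 54 further genes in 8 roles, of which 49 were measured. TLE4 was called lower, none was called higher and 48 did not pass, against the background of 3.42% given above. At an unadjusted p under 0.05, 3 were higher and 6 lower, beside the 11.6% of all genes in either direction that also stands behind the counts by role below. Their median change was -0.0013, with 24 above 0 and 25 below.

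TLE4 encodes a Groucho corepressor, a partner that HES proteins recruit to silence genes. It read 9.09, 9.02 and 9.23 in controls and 8.37, 8.68 and 8.49 after oncostatin M. Every treated array lay well below every control, and the change was -0.60 (SE 0.099, limma adjusted p = 0.0145), a 1.52-fold fall. The call was lost without control 1 (limma adjusted p = 0.0864), control 3 (0.066) or oncostatin M 3 (0.0525). TLE3, TLE2 and HDAC1, further corepressor genes, differed by 0.23, 0.27 and 0.22, none past the threshold. Of 7 corepressor genes, 2 were higher (TLE3 and HDAC1) and 1 lower (TLE4) at an unadjusted p under 0.05.

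Of 8 genes of receptor proteolysis none passed, and 1 was higher and 1 lower at an unadjusted p under 0.05. ADAM10, the protease that makes the ligand-induced cut, read 11.64, 11.63 and 11.76 in controls and 11.92, 12.01 and 12.00 after oncostatin M. All treated arrays lay above the controls, with a change of 0.29 (SE 0.073, limma adjusted p = 0.0836). FURIN, which cuts the receptor during its maturation, went from 9.44 ± 0.062 to 9.16 ± 0.05 (SD, n = 3), a change of -0.27 (limma adjusted p = 0.0981). ADAM10 was called when genes in the range of silent genes were left out of the fit (limma adjusted p = 0.0415), and so was FURIN (0.047). Neither was called with any 1 array left out. Gamma-secretase subunits lay near 0, NCSTN at -0.025 and PSENEN at -0.025.

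In the nuclear activation complex none of 6 genes passed and 2 were lower at an unadjusted p under 0.05. KAT2B, an acetyltransferase, differed by -0.29 (limma adjusted p = 0.249) and the Mastermind gene MAML3 by -0.28 (0.134). RBPJ itself differed by 0.026, with an interval of -0.13 to 0.19. Of 5 genes of receptor glycosylation none passed and 1 was lower at an unadjusted p under 0.05, LFNG, which encodes the Lunatic fringe sugar transferase and differed by -0.23 (limma adjusted p = 0.234).

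None of 9 genes of receptor turnover and inhibition passed, and 1, NUMB, was lower at an unadjusted p under 0.05 (-0.17). FBXW7, a ubiquitin ligase subunit that marks the Notch intracellular part for breakdown, had the largest change of that role (-0.20, limma adjusted p = 0.722). In the 3 remaining roles no gene passed either threshold. Their largest changes were those of MIB1, a ubiquitin ligase of Notch ligands (-0.21), DLK2, a non-canonical ligand (0.20), and HES7 (0.17). NRARP, a feedback inhibitor that Notch itself induces, differed by 0.035 (interval -0.22 to 0.29).

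**Figure D4:**
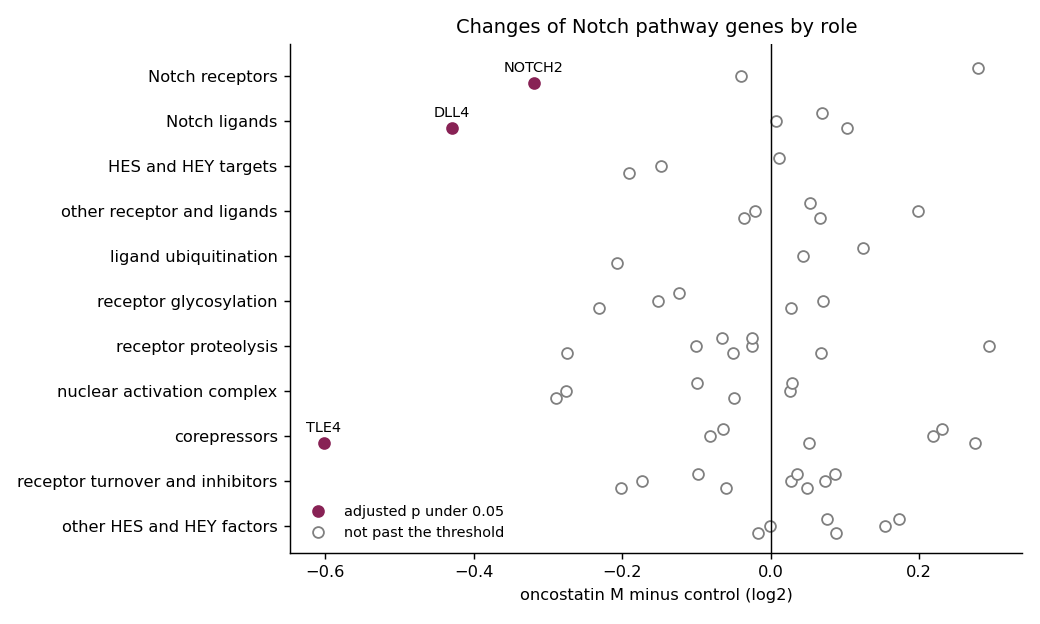
Changes (x axis, oncostatin M minus control, log2) of the 10 Notch genes (upper 3 rows) and of 49 further pathway genes by role, 1 point per gene. Filled points passed an adjusted p of 0.05 (limma): NOTCH2, DLL4 and TLE4, all lower.

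Markers of cell types in which these genes are best known were read beside the members, and their counts of calls stand beside 1.70% of all genes lower and 1.72% higher. All 9 fibroblast markers lay above the silent range, with 2 of 9 called higher and none lower. The mean of the fibroblast list was 11.78 to 11.89 over controls and 11.91 to 12.08 over treated arrays, without overlap. The fibroblast markers did not move together. Their changes were above 0 for 5, the largest in LUM (0.75), and below 0 for 4 (COL1A1, COL1A2, FBN1 and, lowest, VIM at -0.15). Of 9 endothelial markers, 7 lay within the silent range in both groups, among them PECAM1 (4.83 in controls), CDH5 (5.88) and VWF (5.69). TEK (8.57 in controls and 9.04 after oncostatin M) and CLDN5 (6.96 and 7.06) lay above it. None of the 9 was called, and TEK was higher at an unadjusted p under 0.05. The mean of the endothelial list was 5.67 to 5.83 over controls and 5.70 to 5.92 over treated arrays, and its part in the values of DLL4 was not tested. Of 7 smooth muscle and pericyte markers 3 were called lower (CNN1, RGS5 and CSPG4) and none higher. RGS5 lay within the silent range after oncostatin M (6.69), and MYH11 lay within it in both groups. The mean of the smooth muscle and pericyte list was 8.87 to 9.01 over controls and 8.54 to 8.66 over treated arrays. The part of that shift in the falls of DLL4 and NOTCH2 was not tested. Epithelial markers had 1 of 8 called, KRT18, higher, with list means of 6.27 to 6.37 and 6.29 to 6.59. Of these 8, 6 lay within the silent range in both groups, and KRT18 lay above it (8.98 in controls). Leukocyte markers had none of 4 called, or at an unadjusted p under 0.05, with list means of 6.22 to 6.30 and 6.23 to 6.35, and 3 of the 4 lay in the silent range in both groups, PTPRC among them, while CD68 read 10.67 in controls and 10.65 after oncostatin M.

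Of the 6 arrays, oncostatin M 1 differed most from its group, with an array weight of 0.226 against 0.723 to 3.22 for the others. It was the highest of the treated arrays for 7 of the 10 members and the lowest for DLL4 and NOTCH2. Without it the change of DLL4 was -0.38 and that of NOTCH2 -0.30, the latter no longer called, as given above. Over all genes, groups did not overlap for 18.0%, and for 3 of the 10 members (NOTCH1, NOTCH2 and DLL4).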

How the data were processed

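Total RNA of 3 untreated and 3 oncostatin M arrays was compared, with groups and replicate numbers from the labels. The authors deposited log2 values per probe set. The submitters' processing notes name RMA and Affymetrix Expression Console, version 1.1. RMA corrects background, aligns arrays and summarises probes, and it can shrink differences at low intensity. Array medians lay between 6.54 and 6.66. The sources used here name no genome build for the files.

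Of 33297 probe sets, 19460 had 1 gene symbol, 1754 several and 12083 none. Where a gene had several, the one brightest on average was used (18417 genes, no filter). No member had a choice of probe sets. limma 3.58.1 in R 4.3.3 was fitted with the group as its only term (lmFit, eBayes, two-sided, Benjamini-Hochberg over all genes) and tested on simulated data. Figures were drawn with matplotlib 3.10.9. Promoters came from RefSeq.

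The members and gene lists were chosen with earlier results of these data known. Named are all 10 members, pathway genes past the threshold, the largest change per role and the 3 genes most like DLL4. TLE2, TLE3, HDAC1, FURIN, NCSTN, PSENEN, RBPJ, MAML3, NUMB and NRARP were added after their values were seen. Alternatives covered scaling, probe set, dim-gene filters, a stricter threshold, leaving out each array, array weights, the variance prior and a replicate block. The number of arrays limits the precision.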

Additional observations from a re-analysis of the deposited data

How the results depend on the processing

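DLL4 and NOTCH2 kept their direction under all 16 alternatives each (-0.46 to -0.38 and -0.34 to -0.28), and DLL4 kept its call in 11 of 16 and NOTCH2 in 8 of 16. The probe set choices, dim-gene filters, variance prior, replicate block and stricter threshold leave the 2 changes as they were, so direction was fixed there. For both genes every treated array lay below every control, so leaving out or weighting arrays could not turn the sign either. No member had a choice of probe sets, so those choices could move a member's call only through the other genes. With each array left out, 0 to 1 members were lower and none was higher, and 0 to 1 further pathway genes were lower, against 105 to 332 lower and 156 to 400 higher genes over the array. At a threshold of 0.01, 0 members and 0 further genes were lower, with 175 higher and 112 lower over the array. With array weights 1 member (NOTCH1) was higher, 2 further genes were higher (ADAM10 and HDAC1) and 2 lower (TLE4 and MAML3), with 667 higher and 610 lower over the array. Further genes numbered 1 higher and 2 lower when genes in the silent range or those below the median level were left out (fewer genes to adjust over) and with an intensity trend and robust prior (ADAM10, FURIN and TLE4), and 1 was higher with quantile normalization once more (ADAM10). The alternatives for further pathway genes and TLE4 were added after seeing the data. The cause of the other differences was not tested.

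With the replicate number as a block, 0 members and 0 further genes were lower (limma adjusted p = 0.0554 for DLL4, 0.105 for NOTCH2 and 0.0517 for TLE4). Whether the numbers pair the arrays is not stated in the labels. Deviations from the group means correlated at 0.064, -0.46 and 0.51 over genes for the 3 same-numbered pairs. The highest correlation was that of control 2 with oncostatin M 1 (0.54). Deviations within a group of 3 sum to 0, so these correlations depend on one another and cannot decide whether the arrays were paired.

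Small changes turned sign, none called. JAG1 was -0.0029 with arrays centred on medians, -0.012 with array weights, and between -0.033 and 0.033 with 1 array left out. HEY2 was -0.013 with quantile normalization, -0.012 with array weights and between -0.046 and 0.044 with 1 array left out. NOTCH3 ranged from -0.077 to 0.018 and JAG2 from -0.0045 to 0.12 with 1 array left out. Changes without control 1 were -0.027 (JAG1) and -0.032 (HEY2). JAG2, HEY1 and HEY2 had no value when genes in the silent range were left out, and these, DLL1 and HES1 had none when genes below the median level were.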
